A study of Mus musculus with 2 samples.

Results

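Among the cell barcodes of a sorted thymic epithelial pool, 247 carried transcripts of dendritic and other myeloid cells, out of 2527 barcodes that passed quality filters; a further 920 did not pass. A barcode was a member when it had at least 500 detected genes, under 15% mitochondrial UMIs, at least 1 UMI of Ptprc and a UMI of at least 3 of Itgax, Cd86, Tyrobp, Fcer1g, Xcr1, Siglech, Csf1r and Lyz2. A UMI is 1 captured RNA molecule, Ptprc encodes the leukocyte protein CD45, and no hashtag was required. The study profiled thymic mimetic cells, which are medullary epithelial cells that express programs of peripheral tissues. Thymi came from 3 inbred strains, C57BL/6 (B6), NOD and BALB/c, with 2 untreated females of 6 weeks from each. They were digested with enzymes, magnetically depleted of CD45-positive cells and sorted as a Pdpn-CD104-mTEClo population, that is, low-MHC class II medullary epithelium without podoplanin and without the integrin CD104. Each mouse was marked with 1 hashtag antibody, the 6 were pooled, and RNA and hashtags were read from 1 droplet capture, so that cells of this capture are not replicates and the mouse is. Below, mice are called B6 1, B6 2, BALB/c 1, BALB/c 2, NOD 1 and NOD 2.

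Dendritic cells take up antigen, load peptides on MHC class II and show them to T cells. In the thymic medulla they acquire self-antigen from epithelial cells and take part in deleting or diverting developing T cells that recognise it. Conventional type 1 cells (cDC1), which carry the chemokine receptor Xcr1 and depend on Irf8 and Batf3, are specialised in cross-presentation, whereas type 2 cells (cDC2) carry Sirpa and many depend on Irf4. Plasmacytoid cells (Siglech), monocytes and macrophages make up the other myeloid cells of the thymus.

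The hashtags are shown because they are the only label that ties a barcode to a mouse here. They are printed 5′ to 3′ as the deposited feature reference lists them, and each is 15 bases long.
HT1, B6 1: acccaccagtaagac
HT2, B6 2: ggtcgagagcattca
HT3, BALB/c 1: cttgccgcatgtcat
HT5, BALB/c 2: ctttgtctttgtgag
HT6, NOD 1: tatgctgccacggta
HT8, NOD 2: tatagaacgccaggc
Over the 15 pairs of these tags, 8 to 14 of the 15 positions differed.

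Promoter windows of 3 MHC class II genes are shown because presentation on class II is the function that the cells share. Each is 80 bases of the gene's strand, 5′ to 3′, from RefSeq on GRCm38.p6, and capitals mark TGATTGG, the core of the Y box that is part of the shared class II promoter.
H2-Aa, chr17:34287839-34287918, minus strand: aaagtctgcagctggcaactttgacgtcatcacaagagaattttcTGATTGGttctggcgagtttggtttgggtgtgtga
H2-Eb1, chr17:34305761-34305840, plus strand: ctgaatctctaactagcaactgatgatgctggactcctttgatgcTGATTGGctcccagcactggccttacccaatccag
H2-Ob, chr17:34238801-34238880, plus strand: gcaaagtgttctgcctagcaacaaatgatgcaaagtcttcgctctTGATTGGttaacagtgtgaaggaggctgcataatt
The motif began 50, 61 and 59 bases before the annotated start of H2-Aa, H2-Eb1 and H2-Ob. TGATTGG and its reverse complement CCAATCA were searched in the 250 bases before the start. A match was present in 6 of the 7 class II genes of the list that had a window (H2-DMa had none), and in 2375 of 32851 windows of all genes (7.23%). A match is a run of letters and not evidence of binding.

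The members were deep. They held 2980 to 95968 UMIs (median 34216, 8964159 in total) and a median of 5274 genes, against a median of 14904.5 UMIs in the 1814 epithelial barcodes (no Ptprc, at least 3 of 11 epithelial genes). The median mitochondrial share was 0.676% in members and 2.30% in epithelial barcodes. Of the 8 scored markers, 18 members held 3, 77 held 4, 83 held 5, 55 held 6, 13 held 7 and 1 held all 8. The 18 members at the threshold had a median of 16111.5 UMIs, an H2-Aa level of 5451 CPM (counts per 1000000 UMIs, summed over the barcodes) and 281 CPM of Epcam. The 34 barcodes just outside, with Ptprc and 2 markers, had 36091.5 UMIs, 1233 CPM of H2-Aa and 480 CPM of Epcam. A further 13 barcodes had 3 or more markers without Ptprc, and 1 failed only on quality.

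The genes that chose the members are given as levels, with 95% exact Poisson intervals for CPM and exact Clopper-Pearson intervals for shares; both cover counting error only. Ptprc stood at 353 CPM (340 to 365). Cd86, a costimulatory ligand, was found in 98.4% of members at 585 CPM, and Tyrobp, an ITAM adaptor of myeloid receptors, in 98.8% at 677 CPM. Itgax (CD11c), the classic dendritic integrin, was found in 92.7% (88.7 to 95.6) at 121 CPM. Barcodes with thymocyte markers, which should lack Itgax, had it in 0.637% at a median depth of 5960 UMIs. After thinning to 5000 UMIs the shares were 45.7% of 245 members and 0 of 88 thymocyte-marker barcodes. Here and below, thinning left out barcodes under 5000 UMIs: 2 members, 69 thymocyte-marker barcodes and 280 epithelial barcodes among them. Xcr1 was found in 66.8% of members at 286 CPM and in none of the 157 thymocyte-marker barcodes, and after thinning in 54.3% of members. Thymocyte-marker barcodes were by definition not members, so their low shares of Itgax and Xcr1 partly follow from the rule. Fcer1g, the Fc receptor gamma chain, was found in 45.7% at 216 CPM and Csf1r, the receptor of the macrophage growth factor, in 36.8% at 35.03 CPM. Siglech was found in 22.3% at 9.82 CPM. Lyz2, the myeloid lysozyme, was the one scored gene whose level did not set the members apart: 140 CPM in members against 115 CPM in the other 2280 passing barcodes. All 6 defining markers of the label (Ptprc, Itgax, Tyrobp, Fcer1g, Xcr1 and Cd86) were present, with 5 of them in at least 50% of members, and the summed level of the 6 was 2237 CPM against 62.3 CPM in the other barcodes. All 6 are genes of the member rule, so these values partly follow from it and do not test the label.

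Ranked by the ratio of CPM in members to CPM in the other passing barcodes (the latter set to no less than 3 UMIs), among genes found in at least 40% of members, the leading genes were Gpr141b, Rgs18, Havcr2, Xcr1, Dcstamp, Clec4b2, Itgax, Ms4a6c, Ctla2b, Mpeg1, Clec9a, Gm6377, Septin3, A530064D06Rik, Cd207, 9830107B12Rik, Gcsam, Clnk, Ccl4 and Tyrobp. Havcr2 (TIM-3), a checkpoint receptor that cDC1 express, stood at 339.9 CPM in 94.7% of members. Cd207 (langerin), a lectin of Langerhans cells and of some cDC1, stood at 859.5 CPM in 79.8%, and Mpeg1, a pore-forming protein of phagocytes, at 493 CPM in 83.8%. Clec9a, the cDC1 receptor for actin of dead cells, stood at 129.5 CPM in 68.8%. As the members were chosen by transcripts, none of these ratios is a test. Of 11295 genes at 10 CPM or more in either set, 10.5% had a ratio of 2 or more and 39.8% a ratio of 0.5 or less, with a median ratio of 0.626. The counts of list members below use the same 10 CPM rule. Some lists hold genes of the member rule, whose levels partly follow from it. Among these are Xcr1 (cDC1 and chemokine receptors), Csf1r (macrophage), Lyz2 (monocyte), and Fcer1g and Tyrobp (Fc and ITAM). The counts include them.

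Most of the lists that describe dendritic cells stood above that background. In the cDC1 list, 12 of 13 genes at 10 CPM had a ratio of 2 or more, with Irf8 at 1137 CPM, Ppt1 at 1144 CPM and Naaa at 965 CPM in members; the exception was Cd8a, at 4.24 CPM. In the cDC2 list, 6 of 8 genes did, with Clec4a2 at 63.3 CPM and Sirpa at 54.3 CPM. In the mature dendritic cell list headed by Ccr7, 8 of 17 had a ratio of 2 or more and 5 a ratio of 0.5 or less. Cd83, a maturation marker, stood at 525 CPM in 96.4% of members, whereas Ccr7, which guides migrating dendritic cells, stood at 70.4 CPM in 23.5%. In the plasmacytoid list, 1 of 10 had a ratio of 2 or more (Irf7, 645 CPM) and 5 a ratio of 0.5 or less. Tlr7 and Tlr9, the nucleic acid sensors of those cells, stood at 2.12 and 1.34 CPM.

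Macrophage and monocyte genes were present in part. In the macrophage list, 7 of 9 genes at 10 CPM had a ratio of 2 or more, among them Timd4, a receptor for phosphatidylserine (139 CPM), Cd68 (81.4 CPM) and the complement gene C1qa (66.8 CPM, in 20.2% of members). Mertk, Ms4a7, Trem2 and Cd5l were at 0 UMIs, which allows up to 0.335 CPM (3 UMIs of the total). In the monocyte list, 3 of 7 had a ratio of 2 or more (Ms4a6c, Ccr2 and Cx3cr1), and Ly6c2, the marker of classical monocytes, stood at 1.004 CPM. In the list of granulocytes and mast cells, 1 of 4 did (Cxcr2, 12.3 CPM), and Retnlg, Elane, Cpa3, Mcpt8 and Fcer1a were at 0 UMIs.

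Lists of function were split. Of 11 class II genes, 9 had a ratio of 2 or more. The same held for 9 of 11 genes of pattern recognition, among them Clec7a (Dectin-1, 561 CPM) and Cd36 (185 CPM), for 7 of 8 chemokine receptors and for 6 of 8 Fc and ITAM genes. Of 11 genes of cross-presentation 5 did, with Psmb9 at 894 CPM and Wdfy4, which cDC1 need for cross-presentation of cell-bound antigen, at 838 CPM. Of 14 chemokines 7 did and 6 had a ratio of 0.5 or less. Cxcl16 stood at 470 CPM in 99.2% of members and Ccl4 at 404 CPM, while Ccl21a, which medullary epithelium makes, stood at 110 CPM against 1291 CPM in the other barcodes. Of 12 interferon-stimulated genes 3 had a ratio of 2 or more and 5 a ratio of 0.5 or less, and of 10 cell-cycle genes 3 and 0.

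Genes of other cells were found in many members, and their part in the results was not tested. Of the 11 epithelial genes, all 11 had a ratio of 0.5 or less, and their summed level was 847 CPM against 8222 CPM in the other barcodes. Still, 154 members had a UMI of at least 3 of them, 44 of at least 5, and in 17 the summed level of 7 keratins (Krt5, Krt7, Krt8, Krt14, Krt17, Krt18 and Krt19) reached 500 CPM. At least 3 of 12 thymocyte genes were found in 16 members and at least 3 of 10 B-lineage genes in 12. Of these B-lineage genes, Ighm was found in 81.4% of members at 102 CPM. After thinning, it was found in 31.8% of members, 29.5% of thymocyte-marker, 15.96% of B-marker and 1.96% of epithelial barcodes. These shares differ between the kinds of barcode, and the source of the Ighm UMIs in members was not tested.

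Xcr1 and Sirpa marked largely separate members. Xcr1 without Sirpa was found in 157 members (63.6%), Sirpa without Xcr1 in 71 (28.7%), both in 8 and neither in 11. The sets were alike in depth, with medians of 35262 and 29517 UMIs. This division was chosen after the levels were seen, on 1 capture, and the values that follow carry no test. A member without Xcr1 had to reach 3 markers through the other 7, so the levels of the rule's genes between the sets partly follow from the rule, and those of Xcr1 and Sirpa from the division. Of 8502 genes at 10 CPM in either set, 7.34% were at least 2 times higher in the Xcr1 set and 14.1% at least 2 times higher in the Sirpa set.

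In the cDC1 list, 11 of 12 genes were at least 2 times higher in the Xcr1 set and 0 in the Sirpa set (10 of 11 without Xcr1 itself). Clec9a stood at 186 CPM (98.1% of members) against 11.6 CPM (12.7%). Naaa, a lysosomal amidase, stood at 1417 against 61.4 CPM, and Irf8 at 1596 against 226 CPM. Tlr3, the receptor for double-stranded RNA, stood at 106 against 2.90 CPM. Batf3, the partner of Irf8 in cDC1, was less divided, at 160 against 47.7 CPM, and Itgae (CD103) was the list's gene at 10 CPM that fell short of a ratio of 2, at 299 against 196 CPM. Beyond the list, Clnk, an adaptor of signalling downstream of immune receptors, stood at 222 against 2.49 CPM, Cd207 at 1149 against 307 CPM and Cd8b1 at 78.1 against 5.39 CPM. Cd8b1, which is also a thymocyte gene, was found after thinning in 17.1% of members, 39.8% of thymocyte-marker barcodes and 1.06% of B-marker barcodes (at least 3 B-lineage genes).

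In the cDC2 list the order was turned: 7 of 9 genes were at least 2 times higher in the Sirpa set and 0 in the Xcr1 set (6 of 8 without Sirpa itself). Irf4 stood at 116 CPM (70.4% of members) against 3.96 CPM (5.10%), and Mgl2, a galactose-binding lectin, at 106 against 6.54 CPM. The macrophage and monocyte lists were higher there too, with 7 of 9 and 7 of 7 genes (6 of 8 and 6 of 6 without Csf1r and Lyz2, genes of the member rule). C1qa stood at 232 CPM in the Sirpa set (40.8% of members) against 4.82 CPM, and Ccr2, the receptor that calls monocytes from the blood, at 126 against 3.79 CPM. Zeb2, a transcription factor that restrains the cDC1 fate, stood at 138 CPM (76.1%) against 0.344 CPM (1.27%).

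Signalling and effector genes followed the same line. Of 8 Fc and ITAM genes, 7 were at least 2 times higher in the Sirpa set (5 of 6 without Fcer1g and Tyrobp, genes of the member rule). Fcer1g was found in all of the Sirpa set at 730 CPM and in 18.5% of the Xcr1 set at 9.98 CPM. Clec7a stood at 1964 CPM (90.1%) against 14.6 CPM (15.3%). Lgals3 (galectin-3) stood at 1266 CPM (97.2%) against 4.48 CPM (12.1%), and Mmp12, a macrophage metalloproteinase, at 538 CPM (59.2%) against 0.861 CPM (1.27%). Of 10 chemokine receptors, 7 were higher in the Sirpa set (Ccr7 at 143 against 12.2 CPM) and 2 in the Xcr1 set (Xcr1, by which the sets were made, and Cxcr3). Of 17 genes of the mature dendritic cell list, 9 were higher in the Sirpa set and 2 in the Xcr1 set. The chemokines Ccl17 and Ccl22, which draw Ccr4-bearing T cells, stood at 801 against 16.4 CPM and 233 against 12.0 CPM.

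Pattern recognition was divided between the sets, with 5 of 9 genes higher in the Xcr1 set and 3 in the Sirpa set. Tlr11, a sensor of profilin, was found in 52.9% of the Xcr1 set at 22.4 CPM and at 0 UMIs in the Sirpa set, which allows up to 1.24 CPM. Class II genes were not divided: 9 of 11 were within 2 times of each other, with H2-Aa at 9469 and 9713 CPM, Cd74 at 21145 and 21252 CPM and Ciita, the class II transactivator, at 239 and 288 CPM. The exceptions were H2-Ob, higher in the Xcr1 set (114 against 53.9 CPM), and H2-DMb2, higher in the Sirpa set (383 against 112 CPM). Of 11 interferon-stimulated genes 5 were higher in the Sirpa set and 0 in the Xcr1 set, although Cxcl9, an interferon-gamma target, stood at 236 CPM in the Xcr1 set and 32.3 CPM in the Sirpa set.

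Clustering of the 247 members by all variable genes gave 10 clusters. A cluster was named when its markers came from 1 list of a cell lineage clearly more than from the next, a threshold set after the clusters were seen; lists of states, such as maturation and cell cycle, did not compete for the name. A cluster stayed unnamed when its 10 leading genes held more genes of another list of cell types or of the mature dendritic list than of its own. Clusters 2, 3, 5, 7 and 8 were cDC1-like, with 7 to 12 of 13 markers, and held 151 members (61.1%). Clusters 4 and 6, with 56 members (22.7%), had most markers from the cDC2 list (5 and 8 of 12), but Cxcr2 and Ccl22 in cluster 4 and Lyz2 in cluster 6 were among the leading genes and no gene of the cDC2 list was. They and clusters 0, 1 and 9 (40 members) are therefore given by number. The cDC1-like clusters had no gene of the cDC1 list among their 10 leading genes either, so those names rest on the marker counts alone. Igkc and Igha, which led cluster 5, are in none of the lists.

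**Figure D1:**
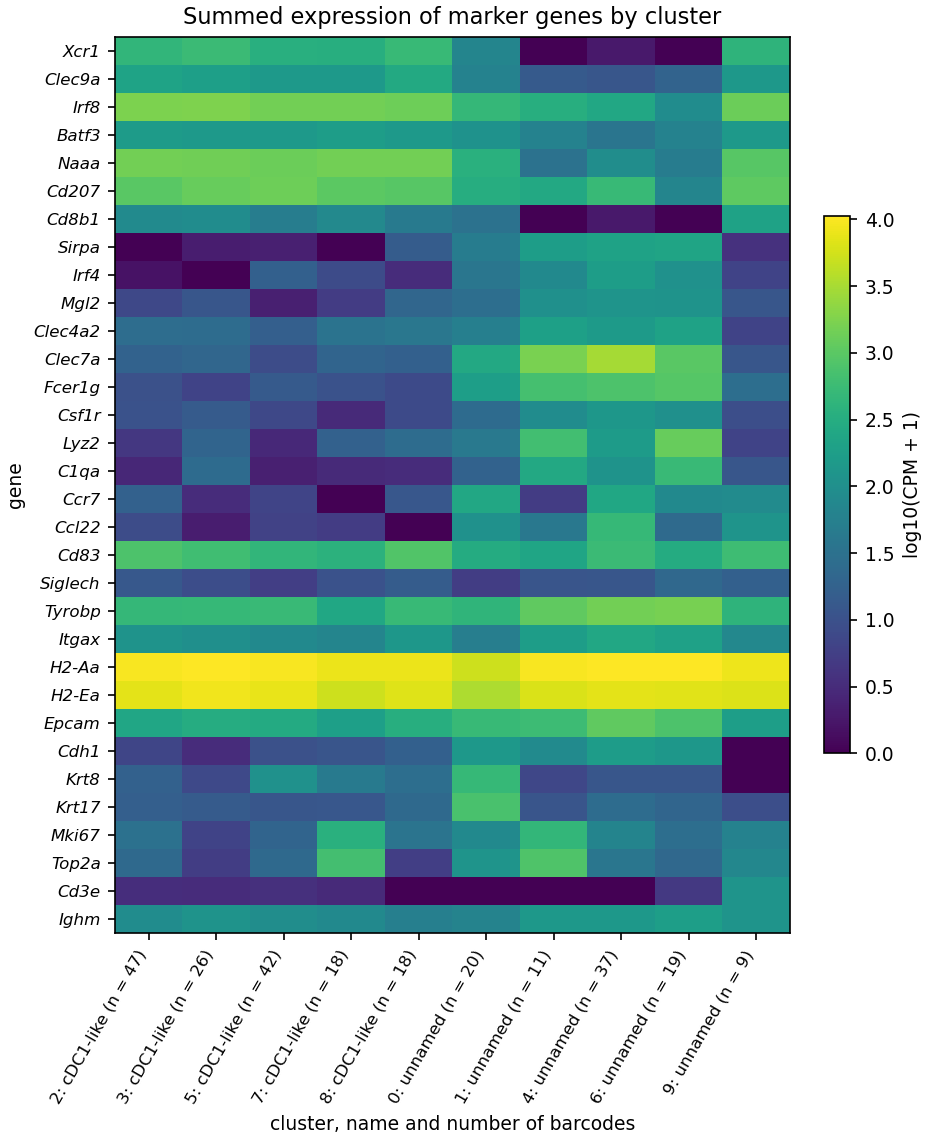
Summed expression of marker genes (rows) in the 10 clusters of members (columns, with name and number of barcodes), as log10(CPM + 1) in colour. Xcr1 and Clec9a are high in the cDC1-like clusters 2, 3, 5, 7 and 8 and in the unnamed cluster 9, and Sirpa is high in the unnamed clusters 4, 6 and 1 (209, 221 and 171 CPM).

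Among the cDC1-like clusters, only cluster 7 was marked by the cell-cycle list. The others are given by their leading genes, and no state is assigned to them. Cluster 7 (18 members, median 54109.5 UMIs) held all 10 cell-cycle genes as markers and was led by Arhgef39, Polq, Exo1, Ube2c, Prr11, Neil3, Depdc1a, Plk1, Nek2 and H2ac10, genes of mitosis and of DNA replication and repair among them. Mki67, the Ki-67 proliferation antigen, stood at 357 CPM there against 5.56 to 34.4 CPM in the other cDC1-like clusters. Among the leading genes of cluster 2 (47 members) were 6530409C15Rik, Acsf2, Clec1b, Pgbd5, Tlr12, Airn, Trpm2, Osbpl3 and Laptm4b; Tlr12 is the partner of Tlr11 in sensing profilin. Cluster 3 (26 members) was led by Gpr33, Letmd1, Rps16-ps2, B3gnt5, Gm12551, Nprl2, Krt13, Bmp10, Slc25a22 and Msl3l2. Cluster 8 (18 members) was led by Gm44834, Gm20528, Nrg2, Tnfrsf21, Gm37376, Gm37558, Abca13, Gm44423, Gpd2 and Hdac9, had the lowest median depth of the 10 clusters (24443.5 UMIs) and a median mitochondrial share of 1.38%.

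Cluster 5 (42 members) was led by Igkc, Igha, Cacna1s, Txndc5, H2aw, Fam216a, Cfap53, Edem2, Ruvbl2 and Otof. The immunoglobulin genes rested on few members: the median member had 101 CPM of Igkc, 1 member had 278720 CPM, and that member held 44.6% of the cluster's Igkc UMIs. For Igha 1 member held 59.6%. Of the cDC1 list, 7 genes were markers of this cluster, so that immunoglobulin and cDC1 transcripts shared barcodes.

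Clusters 4 and 6 differed in their leading genes, whereas Sirpa (97.3% and 100%) and Clec7a (89.2% and 89.5%) were found in similar shares of them. Cluster 4 (37 members) was led by F7, Plet1, F10, Lgals3, Cxcr2, Mmp12, Cxcl2, Clec4n, Ccl22 and Mfge8, a group that holds the coagulation factors VII and X, a neutrophil-attracting chemokine and a bridge for apoptotic cells (Mfge8). It had 10 of 18 mature dendritic cell markers, Ccr7 at 248 CPM and Ccl22 at 491 CPM. Cluster 6 (19 members) was led by Lyz2, Fut7, Gm37229, Lyz1, Dab2, Pltp, Gsg1, Siglece, Sh2d1b1 and Adora2b and had 6 of 12 monocyte markers. C1qa stood at 527 CPM in cluster 6, in 26.3% of its members, and at 117 CPM in cluster 4, in 45.9%. Lyz2 stood at 1223 CPM in cluster 6, but the median member had none and 1 member held 54.6% of its UMIs.

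Among the other unnamed clusters, cluster 1 (11 members) had 6 monocyte and 5 cDC2 markers and all 10 cell-cycle genes, with Lyz2 at 649 CPM, C1qa at 270 CPM and Mki67 at 463 CPM. It was led by Il1a, I830077J02Rik, Slc43a3, Mlkl, Spink2, 2600006K01Rik, H2bc18, Shcbp1, H4c3 and Prc1. In cluster 9 all 9 members had at least 3 thymocyte genes beside 8 cDC1 markers. Among its leading genes were Themis, Cd3g, Lef1, Lck, Trbc2, Sh2d1a, Thy1, Trbc1 and Dntt, genes of T-cell receptor signalling and of developing T cells. Cluster 0 (20 members) held the epithelial signal: keratins summed to a median of 1661 CPM, 12 of its members reached 500 CPM, and Aire stood at 150 CPM, in 20% of members. Stxbp6, Ccl5, Iigp1, Insm1, Timp3, Actn3, Pax9, Ccl21a and Eya4 were among its leading genes. Ccl5 and Ccl21a rested on few members, with 10.4 and 33.4 CPM in the median member. For Ccl5 1 member held 36.1% of the UMIs. Cluster 0 also had 13 of 18 mature dendritic cell markers, with Ccr7 at 261 CPM. Whether these UMIs came from dendritic or epithelial RNA in those barcodes was not tested. The median hashtag total was 5030.5 UMIs in cluster 0 and 88 to 199 UMIs in the other 9 clusters.

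Epcam, the surface protein by which thymic epithelium is commonly gated, and Cdh1 (E-cadherin) differed from the keratins in these members. Epcam was found in 94.7% of members at 434 CPM (421 to 448). Thymocyte-marker barcodes had it in 18.5%, at their lower depth. After thinning the shares were 68.2% of members, 23.9% of thymocyte-marker, 77.7% of B-marker and 93.2% of epithelial barcodes. The 18.5% and 23.9% come from different sets, as thinning left out the 69 shallowest of 157 thymocyte-marker barcodes. Krt8, the simple-epithelial keratin, was found after thinning in 11.0% of members, 17.0% of thymocyte-marker, 66.0% of B-marker and 88.0% of epithelial barcodes. The ratio of Epcam to Krt8 UMIs was 0.659 in epithelial, 0.796 in thymocyte-marker and 0.574 in B-marker barcodes, and 5.37 in members. In the 167 members with no hashtag called it was 28.2, from 2256 UMIs of Epcam and 80 of Krt8.

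Within the members the level of Epcam followed the Sirpa side. It stood at 860 CPM (824 to 898) in the Sirpa set against 261 CPM (248 to 275) in the Xcr1 set, with a UMI in 97.2% and 96.8% of them. Cdh1, which mediates adhesion between epithelial cells and between these and Langerhans cells, stood at 138 CPM (81.7% of the Sirpa set) against 9.30 CPM (16.6% of the Xcr1 set). Krt8 stood at 60.1 and 34.9 CPM, and the median summed keratin level was 52.7 and 49.0 CPM. By cluster, Epcam stood at 991 CPM in clusters 4 and 6 together and at 262 CPM in cDC1-like members, from 1640 and 1457 UMIs. Krt8 went the other way there, at 10.9 CPM (18 UMIs) in clusters 4 and 6 and 45.5 CPM (253 UMIs) in cDC1-like members. Cluster 4 had 1087 CPM of Epcam and the cycling cluster 7 had 189 CPM. Epcam thus stood higher on the Sirpa side by either division, while Krt8 was higher on the Sirpa side by 1 division and lower by the other. With 1 capture this difference has no replicate check.

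**Figure D2:**
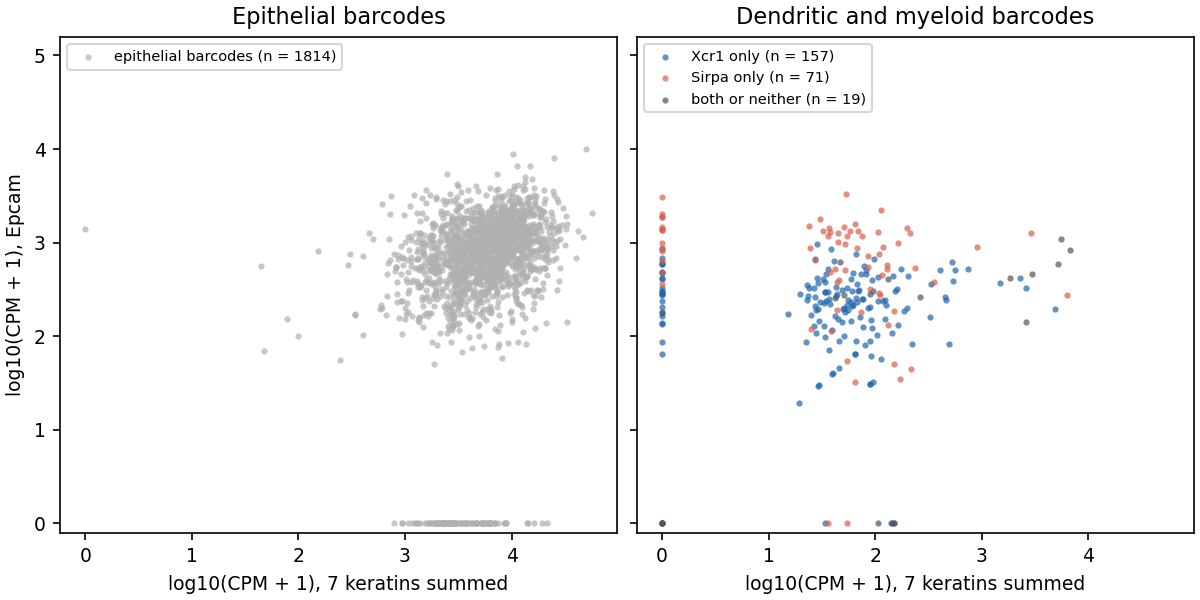
Epcam against the sum of 7 keratins per barcode, both as log10(CPM + 1), in epithelial barcodes (left) and in members (right, coloured by Xcr1 and Sirpa). Members with Sirpa only lie higher for Epcam (860 CPM summed) than members with Xcr1 only (261 CPM summed) at similar median keratin levels (52.7 and 49.0 CPM).

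Transcripts of class II presentation were found in nearly every member. H2-Aa and H2-Ab1, the chains of I-A, stood at 9121 and 9535 CPM, against 1181 and 1410 CPM in the other passing barcodes. H2-Eb1, the beta chain of I-E, stood at 12578 CPM against 1063 CPM, and Cd74, the invariant chain, at 20246 CPM against 4024 CPM. The peptide exchange genes H2-DMa and H2-DMb1 stood at 590 and 922 CPM, Ciita at 243 CPM, and H2-DMb2 at 184 CPM. H2-Oa and H2-Ob, which form the inhibitor of peptide exchange, stood at 73.3 and 93.1 CPM. These genes lie together on chromosome 17, from H2-Oa (34092340 to 34095234) to H2-Ea (34341959 to 34344645, GRCm38), apart from Cd74 and Ciita. The sort was for low class II protein, which the RNA does not measure.

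H2-Ea encodes the alpha chain of I-E and can tell strains apart. B6 and NOD carry haplotypes with a deletion in its promoter, and BALB/c carries an intact one. Hashtags were called with HTODemux, which accepts a hashtag above a background quantile; singly tagged barcodes are grouped here by the hashtag it called, not by established strain. In epithelial barcodes H2-Ea followed the hashtag, standing at 909 and 845 CPM under the BALB/c hashtags. It stood at 41.96 and 58.1 CPM under those of B6, and at 43.1 and 99.4 CPM under those of NOD. In members it did not. In the 5 members of B6 1 the lowest, median and highest were 507, 6257 and 9076 CPM, and in the 17 of B6 2 they were 0, 6058 and 12770 CPM. In the 6 of BALB/c 1 they were 2405, 4996 and 11597 CPM, and in the 9 of BALB/c 2 they were 0, 6796 and 8604 CPM. In the 17 of NOD 1 they were 739, 7018 and 10910 CPM, and in the 13 of NOD 2 they were 4013, 6589 and 12786 CPM. The 6 ranges overlapped, the medians lay between 4996 and 7018 CPM, and the 167 untagged members had a median of 7277 CPM with a UMI in 164 of them. H2-Aa, which all 3 strains express, stood at 8324, 8956, 6087, 8508, 8889 and 10170 CPM in the same order of mice.

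**Figure D3:**
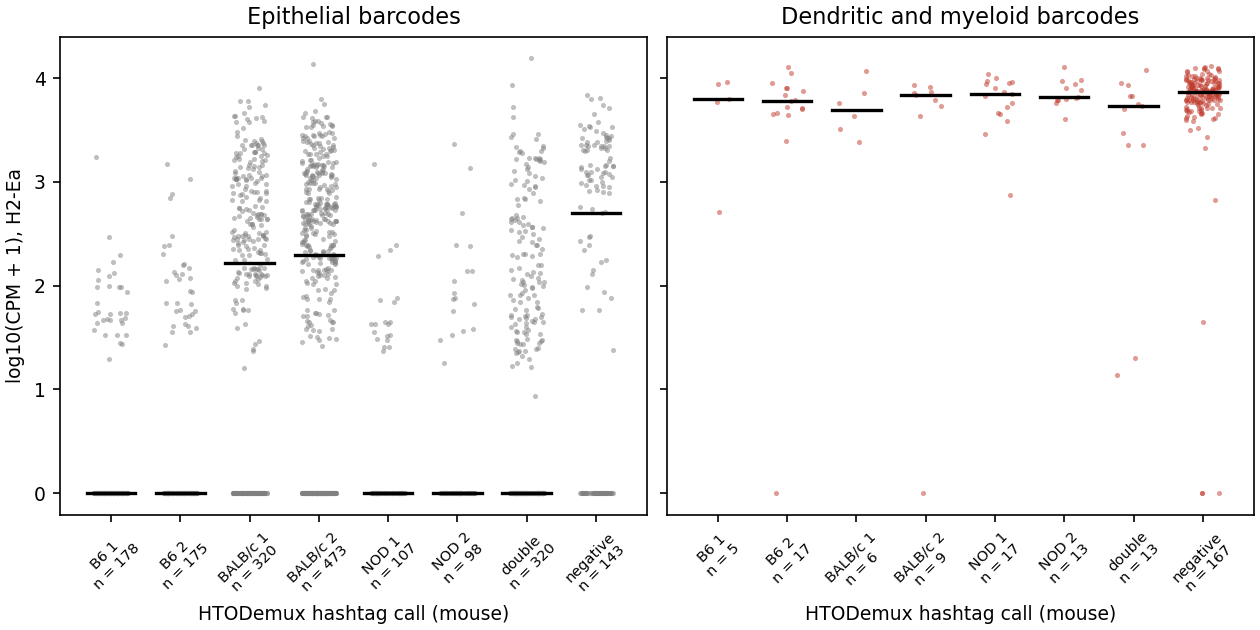
H2-Ea per barcode as log10(CPM + 1) by HTODemux call, in epithelial barcodes (left) and members (right), with black bars at the medians and the number of barcodes under each call. The epithelial median is above 0 in the BALB/c mice and the untagged barcodes, whereas the members' medians lie between 4996 and 7277 CPM under every hashtag and without one, with 5401 CPM in the 13 doubly tagged members.

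Hashtags on members were few and mixed. The 6 hashtags summed to a median of 126 UMIs per member against 2956 per epithelial barcode, and the leading hashtag held a median of 44.9% of them (23.4 to 99.3) against 96.2%. HT5 led in 111 members, HT3 in 67, HT2 in 29, HT6 in 21, HT1 in 13 and HT8 in 6. HTODemux left 167 members untagged, gave 67 a single hashtag and 13 more than 1; in epithelial barcodes it gave 1351 a single hashtag, 320 more than 1 and 143 none. In 12 of the 67 singly tagged members the called hashtag was not the one with the most UMIs, and these had a median of 247 hashtag UMIs. That occurred in 1 of 1351 epithelial barcodes. In 43 members the leading hashtag reached 70%.

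By leading hashtag, the median leading share of B6 1 was 50.7% for members against 95.8% for epithelial barcodes, and that of B6 2 was 47.2% against 95.6%. For BALB/c 1 it was 44.1% against 96.0% and for BALB/c 2 it was 43.4% against 97.8%. For NOD 1 it was 45.6% against 96.2% and for NOD 2 it was 52.0% against 90.7%. The share was lower in members for 6 of 6 hashtags, with a mean difference of -48.2 percentage points (two-sided exact sign-flip permutation test, p = 0.031, the smallest that 6 allow). The members under a hashtag are set by that same weak lead and are not established as the cells of 1 mouse, so this p holds for the 6 hashtags and not for 6 proven mice. The difference was widest in BALB/c 2 (-54.4 points) and narrowest in NOD 2 (-38.7 points).

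**Figure D4:**
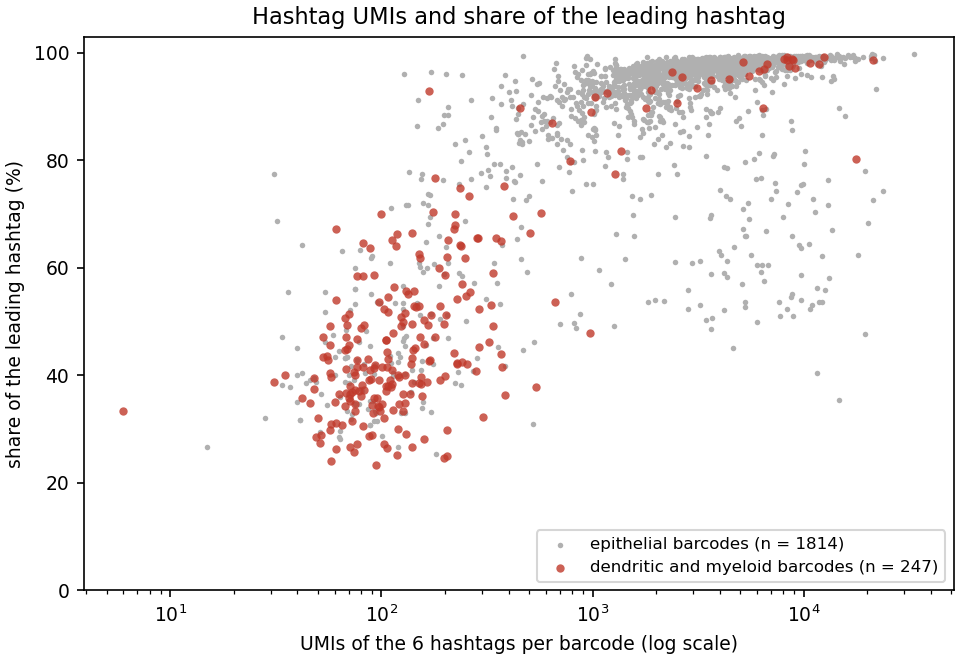
Total UMIs of the 6 hashtags (log axis) against the share held by the leading hashtag, per barcode, in members (red) and epithelial barcodes (grey). Most members lie low on both axes (medians 126 UMIs and 44.9%), and epithelial barcodes lie high (medians 2956 UMIs and 96.2%).

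Genes found in the epithelium of 1 strain were counted in members and set against the strain of the called hashtag. They were chosen on singly tagged epithelial barcodes (a UMI in at least 20% of the barcodes of both mice of a strain and at most 2% in each mouse of the others). The rule gave Skint3, Skint4, Skint9 and Trim12a for B6, Tmem181c-ps and Ifi44l for BALB/c, and Gm11942, Zfp979, Hmgb1-ps7, Zfp990 and BC023719 for NOD. Members held few of their UMIs, and whether these came from the dendritic cells or from epithelial RNA was not tested. Of those in singly tagged members, 1 of 1 matched the strain of the hashtag in B6 1, 48 of 54 in B6 2, 2 of 5 in BALB/c 1, 24 of 25 in BALB/c 2 and 20 of 21 in NOD 1, and NOD 2 had none. In epithelial barcodes 99.2% to 99.7% matched, but these are the barcodes that chose the genes. Over the 5 hashtags with a value the mean difference was -15.4 percentage points, lower in 4 of 5, and was not past the threshold (two-sided exact sign-flip permutation test, p = 0.125, where 5 mice cannot go below 0.0625). Without BALB/c 1, which held 5 such UMIs, the mean difference was -4.47 points. It was -34.4 points without the members at 500 CPM of keratins, a setting chosen after the data were seen (5 hashtags, p = 0.25), and -32.9 points without those with at least 3 epithelial genes (3 hashtags, p = 1), by the same exact permutation test.

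The levels were low even where the strain matched. The B6-only genes summed to 54.9 CPM in members with a B6 hashtag against 782 CPM in B6 epithelium, the BALB/c-only genes to 36.8 against 269 CPM, and the NOD-only genes to 17.6 against 319 CPM. In the 167 untagged members the sums were 1.09, 1.99 and 2.53 CPM (6, 11 and 14 of 5525478 UMIs). Trim12a, a relative of the antiviral TRIM5 proteins (chromosome 7, 104299894 to 104315466), stood at 76.7 CPM in B6 epithelium, 4.48 CPM in members with a B6 hashtag and 0.905 CPM in untagged members. Tmem181c-ps, an unprocessed pseudogene (chromosome 17, 6613753 to 6639790), stood at 241 CPM in BALB/c epithelium, 22.7 CPM in members with a BALB/c hashtag and 1.81 CPM in untagged members. Gm11942, a processed pseudogene (chromosome 4, 32964888 to 32965232), stood at 209 CPM in NOD epithelium, 8.79 CPM in members with a NOD hashtag and 0.905 CPM in untagged members. All 3 were thus low in the untagged members. In thymocyte- and B-marker barcodes with a matching hashtag the sums went both ways. In thymocyte-marker barcodes the B6-only, BALB/c-only and NOD-only genes summed to 18.6, 88.6 and 388 CPM (8, 8 and 6 barcodes). In B-marker barcodes the same sums were 199.9, 159.7 and 0 CPM (16, 17 and 5 barcodes). Both kinds carried epithelial RNA: Krt8 stood at 330 CPM in thymocyte-marker and 1329 CPM in B-marker barcodes. It stood at 80.9 CPM in members and 1666 CPM in epithelial barcodes. The median summed keratin level of B-marker barcodes was 3636 CPM. The part of this RNA in the sums was not tested. Expression of these genes in dendritic cells of each strain was not measured apart from the hashtag.

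**Figure D5:**
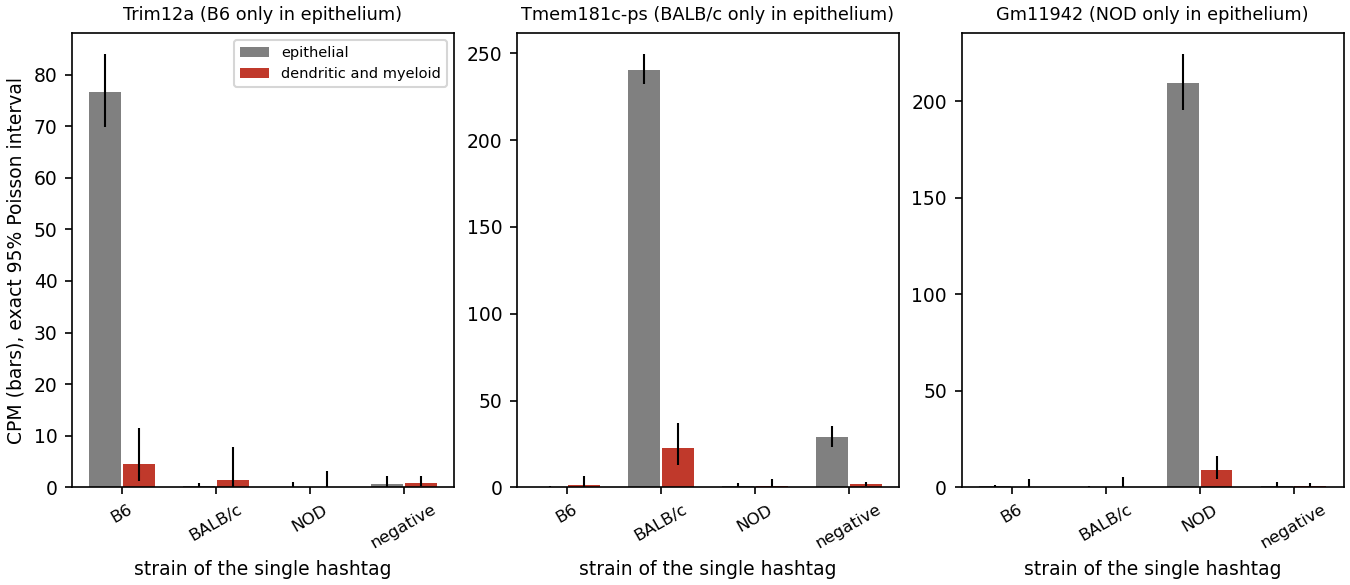
CPM of Trim12a, Tmem181c-ps and Gm11942 in epithelial barcodes (grey) and members (red) by the strain of the single hashtag and in untagged barcodes, with exact 95% Poisson intervals (counting error only). Each gene is high in the epithelium of 1 strain (76.7, 241 and 209 CPM) and under 23 CPM in members of the same hashtag.

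The 25 members with the strongest tags (leading hashtag of at least 500 UMIs and 90%, bounds chosen after the counts were seen) held H2-Ea under the hashtags of each strain. The lowest, median and highest were 19.0, 5367 and 9076 CPM in 10 members with a B6 hashtag, 0, 6796 and 8604 CPM in 11 with a BALB/c hashtag, and 739, 3718 and 5240 CPM in 4 with a NOD hashtag. The 3 ranges overlapped. Their own strain-only genes stood at 79.6, 59.7 and 112 CPM. Keratins moved with the tag: 3 of 10, 7 of 11 and 2 of 4 of them reached 500 CPM, against 17 of all 247 members, and the part of this epithelial RNA in their tags was not tested. The values of 3 further genes, chosen after they were seen, are set side by side. Rps18-ps6, a gene resembling the ribosomal protein gene Rps18, stood at 5.55, 57.6 and 78.4 CPM in B6, BALB/c and NOD epithelium and at 109, 99.1 and 100.2 CPM in members with those hashtags. Zfp981, a zinc finger gene, stood at 5.22, 0.797 and 17.6 CPM in epithelium and 42.6, 43.9 and 59.8 CPM in members. Gm20305 stood at 0.489, 0.159 and 13.5 CPM in epithelium and 4.48, 5.66 and 9.67 CPM in members, the latter from 4, 4 and 11 UMIs. The low values of B6 or BALB/c epithelium were thus not seen in members with those hashtags. Reads of such near copies can be assigned to one another.

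The share of members among singly tagged barcodes was 2.31% in B6 1 (5 of 216), 7.39% in B6 2 (17 of 230), 1.67% in BALB/c 1 (6 of 360), 1.76% in BALB/c 2 (9 of 512), 12.7% in NOD 1 (17 of 134) and 10.6% in NOD 2 (13 of 123). The strain means were 4.85%, 1.71% and 11.6%, a range of 9.92 percentage points between strains (exact permutation test of the strain labels, p = 0.0667, the smallest that the design allows). Both NOD values lay above the other 4. The NOD 2 value is weakly based: its hashtag, HT8, led in 6 members against 13 called, and its highest count in a member was 80 UMIs. When the leading hashtag at 70% or more was used in place of HTODemux, NOD 2 had no member, the range was 0.661 points, B6 was highest and p was 0.933 by the same exact permutation test. Without members with at least 3 epithelial genes the range was 3.63 points, with NOD still highest. As 167 of 247 members had no call, these shares describe hashtag calls and not the strains' dendritic cells. The number of cells in a mouse, the number tagged and calls that do not mark a cell's own mouse cannot be told apart.

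Counts of singly tagged members were summed per called hashtag (5 to 17 members, 175388 to 716589 UMIs) and compared between hashtag strains with edgeR's quasi-likelihood test with Benjamini-Hochberg adjustment. A call did not establish the mouse or strain of a member. The results below therefore compare hashtag calls and not the strains' dendritic cells. Of 6148 genes tested, 0 passed an adjusted p of 0.05 (0%) in each of the 3 comparisons, and 307, 335 and 335 had an unadjusted p under 0.05 for BALB/c against B6, NOD against B6 and NOD against BALB/c. H2-Ea differed by 0.04 ± 0.13 (SE, log2, BALB/c minus B6), 0.27 ± 0.13 (NOD minus B6) and 0.23 ± 0.13 (NOD minus BALB/c), with edgeR adjusted p-values of 0.992, 0.890 and 0.895. The lowest adjusted p was that of Fabp4, a fatty acid binding protein of macrophages and adipocytes, at 0.0966 for NOD minus B6. Leaving out BALB/c 1 gave 22 calls for BALB/c minus B6 and 28 for NOD minus BALB/c, and leaving out BALB/c 2 gave 17 and 17.

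DESeq2, on the same sums, called 4 and 5 genes in the comparisons with B6 and 0 in the third; they are named as DESeq2's calls, after their values were seen. Il1r2, Fabp4 and Reg3g were lower and Ifi27l2a was higher under the BALB/c hashtags than under those of B6. Fabp4, Reg3g, Mmp12, Syt1 and Wfdc17 were lower under the NOD hashtags than under those of B6. Fabp4 had 19 and 132 UMIs under the hashtags of B6 1 and B6 2 and 3 or 4 UMIs under each of the others. Reg3g, an antimicrobial lectin of gut epithelium, had 767 and 166 UMIs under the B6 hashtags and 1 to 6 under the others. Ifi27l2a, an interferon-stimulated gene, stood at 2159 TMM-normalised CPM under both BALB/c hashtags against 783 to 1081 under the other 4. For each of these genes the values of the compared hashtag strains did not overlap, which partly follows from their choice by DESeq2 on the same sums. The adjusted p-values of edgeR lay between 0.0966 and 0.917.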

How the data were processed

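The deposited files hold UMI counts per gene and hashtag in each barcode, raw and whole; the submitters' processing notes name Cell Ranger 7.0.0 and mm10. Which gene annotation it used is not given in the sources used here. Coordinates are those of GENCODE M21, matched by versioned gene identifier. Members and gene lists were chosen with earlier results of these data known. CPM were summed UMIs per 1000000. Hashtags were called with HTODemux (Seurat 5.3.0, quantile 0.99, seed 42) on the 6 pool hashtags; no doublet caller was run, and multiplets within a mouse are not seen by hashtags. Thymocyte- and B-marker barcodes carried Ptprc and at least 3 genes of their lists and were no members. Members were clustered in scanpy 1.11.5 (1986 variable genes, 20 components, 15 neighbours, Leiden resolution 1); a marker was found in 40% of a cluster at 50% or more of the highest cluster, and a name needed 3 markers of a lineage list, a lead of 10% of the list, fewer than 3 markers of B, plasma, thymocyte or epithelial lists, and leading genes that did not go against it. Named were the rule's genes, examples from lists, the 10 leading genes per cluster and 20 for all members, and up to 5 strain-only genes per strain. Some of the leading genes of clusters are not reported here. Sums per mouse of at least 3 members were tested with edgeR 4.0.16 (TMM, filterByExpr, robust fit) and, as an alternative, DESeq2 1.42.0; on simulated counts for NOD minus B6 59.5% of 200 genes changed 4-fold (5794 genes, 13 false calls) and 97.5% of 200 changed 16-fold (5880 genes, 12 false calls) were recovered. The title gives both NOD hashtags the same number; they were kept as 2 mice because the design text gives 2 per strain.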

Additional observations from a re-analysis of the deposited data

Results flagged for a closer look

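Hashtags that the labels do not assign to this pool had UMIs in members, above the 3 UMIs that a count of 0 allows. HT12 had 1078 UMIs in 139 members (highest 60), HT9 had 1029 UMIs in 94 members (highest 147) and HT4 had 26 UMIs in 18 members. Per 1000 UMIs of the 6 pool hashtags these were 4.65, 4.44 and 0.112 in members and 0.136, 0.224 and 0.260 in epithelial barcodes. HT9 exceeded each of the 6 pool hashtags in 6 members and HT12 in 2. In the untagged members alone HT9 had 692 and HT12 742 UMIs. The source of these UMIs was not tested.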

How the results depend on the processing

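Mice were not paired between strains, because mouse numbers only name mice and do not link them across strains. Both deposited samples with replicate number 1 are libraries of one pool. Members and epithelial barcodes were compared in pairs within each hashtag. The 247 members became 93 when those with at least 3 epithelial genes, a list that holds Epcam and Cdh1, were left out. cDC1-like members, 151 of them, numbered 70 with that setting and 91 at resolution 0.5. The member share range reversed to 0.661 points with the leading hashtag at 70%. The leading share difference was -50.1 to -46.9 points with 1 mouse left out, each at the smallest exact permutation p that 5 mice allow (0.0625). edgeR called 95, 108 and 137 genes without a filter on low counts, and DESeq2 4 and 5 in the comparisons with B6. With 1 mouse left out edgeR called 0 to 22 genes for BALB/c minus B6, 0 to 3 for NOD minus B6 and 0 to 28 for NOD minus BALB/c; the 22 and 28 were without BALB/c 1 and the 3 without B6 2. A lone mouse of a strain is then assumed to vary like the others. Stricter strain-only bounds (30% and 1%) left genes for B6 only, so no value was made, and too few members remained per mouse for edgeR without members with epithelial genes. H2-Ea was not among the strain-only genes.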
